A study of Mus musculus with 18 samples.

Results

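The transcripts that the yolk sac makes to carry lipid, thyroid hormone and retinol were measured in mouse embryos at E8.5 that lacked 1 of the DNA methyltransferases. The group holds 9 of the 31053 genes in the files and was chosen by name: the apolipoprotein genes Apoa1, Apoa2, Apoa4, Apob, Apoe and Apom, and the carrier protein genes Afp, Ttr and Rbp4. Each symbol matched 1 gene. The choice uses no measured value, but was made with earlier results of these data known. Single-cell RNA-seq libraries, 18 in all, had been made from whole embryos on the 129S4/SvJae background, each labelled as 1 embryo: 7 wild type (WT), 3 null for Dnmt1, 4 null for Dnmt3a and 4 null for Dnmt3b. Of the last group 2 libraries shared most cell barcodes and count as 1 sample below. Dnmt1 copies methylation onto the new strand after replication, and Dnmt3a and Dnmt3b place methylation on unmethylated DNA. The KO embryos carried the null allele in every tissue and came from matings between heterozygous mice, with WT embryos from the same kind of matings. The question addressed here was how much of each transcript was made, in which cells, and whether the level in KO embryos differed from WT by more than the spread between embryos.

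Before the liver forms, the visceral endoderm of the yolk sac takes up maternal nutrients and secretes most of the plasma proteins of the embryo. ApoB is the structural protein around which lipoprotein particles are assembled. ApoA-I, ApoA-II and ApoA-IV are proteins of high-density and triglyceride-rich lipoproteins, ApoE is a ligand for receptors of the LDL receptor family, and ApoM carries sphingosine-1-phosphate on high-density lipoproteins. Alpha-fetoprotein (Afp) is the main fetal plasma protein, transthyretin (Ttr) carries thyroid hormone, and retinol-binding protein 4 (Rbp4) carries retinol while bound to transthyretin. Macrophages and other cells outside the endoderm also make ApoE.

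Positions are on mm10, the build of the files, in the GENCODE annotation. Apoa1 (chr9:46228580-46230466) and Apoa4 (chr9:46240696-46243459) share a cluster, with 10229 bases between them and Apoc3 in between. Apoe (chr7:19696109-19699188, minus strand) lies 2124 bases from Tomm40 and 3448 bases from Apoc1. The others, with Ttr given among the levels, are Apoa2 (chr1:171225054-171226379), Apob (chr12:7977648-8016835), Apom (chr17:35128997-35132050, minus strand), Afp (chr5:90490737-90508907) and Rbp4 (chr19:38116629-38125281, minus strand). Because the enzymes that were removed methylate cytosine in CG dinucleotides, the promoters of 3 members are shown with each CG in capitals. Apoa1 had the largest fold change in ExE endoderm, Apoe the most frequent change outside it, and Apob the largest change in gut. The sequences are from RefSeq promoter windows on GRCm38.p6, read 5′ to 3′ on the coding strand and ending at the base before the GENCODE start. They cover chr7:19699189-19699438 for Apoe, chr9:46228380-46228579 for Apoa1 and chr12:7977427-7977647 for Apob.
Apoe: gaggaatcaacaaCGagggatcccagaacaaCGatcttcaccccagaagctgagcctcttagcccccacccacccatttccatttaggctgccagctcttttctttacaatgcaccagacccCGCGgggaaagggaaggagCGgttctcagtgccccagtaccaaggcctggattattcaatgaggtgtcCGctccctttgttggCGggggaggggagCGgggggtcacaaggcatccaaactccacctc
Apoa1: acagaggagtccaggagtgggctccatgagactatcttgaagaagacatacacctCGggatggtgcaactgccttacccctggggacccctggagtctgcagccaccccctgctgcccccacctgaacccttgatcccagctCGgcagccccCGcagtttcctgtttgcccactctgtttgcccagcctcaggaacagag
Apob: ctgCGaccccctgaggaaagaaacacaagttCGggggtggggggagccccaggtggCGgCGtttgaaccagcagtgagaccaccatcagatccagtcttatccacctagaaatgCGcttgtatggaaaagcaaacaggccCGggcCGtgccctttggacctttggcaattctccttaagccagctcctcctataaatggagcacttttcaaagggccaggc

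RefSeq promoter windows were examined for 8 of the 9 members, and Ttr was left out. The 250 bases upstream of the RefSeq start held 8 CG dinucleotides for Apoe, 7 for Apob, 6 for Apom and 4 for Apoa1. They held 2 for Apoa2, 1 each for Apoa4 and Afp, and 28 for Rbp4. For Apom, Apoa4, Apoa1 and Apob these windows reach 249, 148, 50 and 29 bases past the GENCODE start into the gene. The window of Rbp4 lies wholly inside the annotated gene. The Apoa1 sequence printed above ends before that start and holds 3 CG. The median over 32851 windows of the same length was 6, with quartiles of 2 and 16, so the CG count of Apoe, Apob and Apom lay near the middle and that of Rbp4 above the upper quartile. Of 5 motifs searched on both strands, TATAAA was found in the windows of Apoa2, Apob, Afp and Rbp4 and in 12.4% of all windows. The FOXA motif TGTTTAC was found in Apoa2 and in 3.17% of all windows. The HNF4 motif CAAAGTCCA (0.384% of all windows), the HNF1 motif (0.00913%) and the GATA motif AGATAA (9.99%) were found in none of the 8 windows. These letters are described only as present or absent, and methylation was not measured in these files.

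The files hold 162336 cell barcodes, of which 107980 were kept. WT embryos gave 34057 of these cells, Dnmt1 KO 6590, Dnmt3a KO 33499 and Dnmt3b KO 33834. A library had between 1361 and 12595 kept cells. Its kept UMIs (unique molecular identifiers, 1 per captured transcript) numbered from 36466660 to 234392439, with a median per cell of 4384 to 60574.5. Clustering was run without the members and named 38 of 44 clusters from marker genes, in 19 classes. A class name is short for cells that are like that type by their markers. Dnmt3b KO 1 and 2 shared 12249 barcodes (86.5% and 79.3% of their lists), whereas the next of the 153 pairs of libraries shared 133. The pair was therefore summed and counted as 1 sample, which left 3 in Dnmt3b KO. Dnmt1 was lower in every Dnmt1 KO embryo (14.9 to 15.7 CPM, UMIs of the gene per 1000000 UMIs) than in WT (83.3 to 116). Dnmt3a was at 23.1 to 35.1 CPM in WT and at 7.49 to 11.7 in Dnmt3a KO, but also at 15.1 in the library labelled Dnmt3b KO 11 and at 7.58 in that labelled Dnmt3b KO 12. Dnmt3b transcript did not separate Dnmt3b KO (54.4 to 68.4 CPM) from WT (35.6 to 87.3), so the 3' counts do not check that label. Every Dnmt3b KO result below includes these 2 libraries. Without them the summed pair is the only Dnmt3b KO sample, and in a fit that was added after the data had been seen and lends that sample the spread of the other groups, no member was called in the whole embryo or in any class. By Y-linked genes the 3 Dnmt1 KO and 4 Dnmt3a KO embryos were male and 6 of the 7 WT embryos female (all but WT 2), so that sex and genotype can barely be told apart in these comparisons. The labels do not say whether embryos shared a litter. From cell type proportions the study inferred a minor developmental delay of its Dnmt1 mutant embryos, and embryos were not matched by stage here.

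In WT embryos all 9 members had their highest level in extraembryonic (ExE) endoderm, the class that holds the visceral endoderm of the yolk sac. Its 10 fixed markers, Cubn and Amn among them, were all detected and summed to between 8770 and 12562 CPM in WT. The 9 members together took 4.38% ± 0.642 (SD, n = 7) of all UMIs of this class in WT. A 3' library gives each transcript 1 tag whatever its length, so levels of different genes are compared below on the CPM scale without dividing by length. The carriers of thyroid hormone and retinol were the most abundant, with Ttr (chr18:20665280-20674321) at 10757 ± 1709 and Rbp4 at 10075 ± 1734 CPM (SD, n = 7). Apoa1 at 7308 ± 968 and Apoe at 6642 ± 763 CPM were the most abundant apolipoproteins. Afp at 2877 ± 830, Apom at 2663 ± 367, Apob at 1497 ± 458, Apoa2 at 1405 ± 396 and Apoa4 at 572 ± 78.2 CPM followed. In this order the ranges over embryos overlapped between each pair of neighbours from Ttr to Apoe and from Afp to Apoa2. Apoe, with a lowest value of 5628 CPM, lay above Afp, with a highest of 4375, and Apoa4 lay below every other member in all 7 embryos, with a highest value of 697 CPM against a lowest of 841 for Apob.

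ExE endoderm held at least 96.1% of the embryo's UMIs, on average over WT embryos, of every member except Apoe. The share was 98.0% ± 1.43 for Apoa1 and 96.1% ± 3.42 for Ttr (SD, n = 7). For Apoe it was 86.6% ± 5.11, with a lowest value of 77.8% and a highest of 91.4%. The remaining Apoe UMIs followed an order of their own over the other classes. The next highest WT levels were in endothelium (854 ± 141 CPM, n = 7) and in immune cells (718 ± 108, n = 4), which hold the early macrophages. Cardiomyocytes (429 ± 75.8), gut (415 ± 124) and pharyngeal mesoderm (376 ± 47.2) followed, and their spreads overlapped. Apoe was at 264 ± 51.3 CPM in notochord (n = 4), at 141 ± 32.4 in somitic and cranial mesoderm and at 49.9 ± 17 in presomitic mesoderm, and it was lowest in erythroid cells at 27.2 ± 8.28 CPM.

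**Figure D1:**
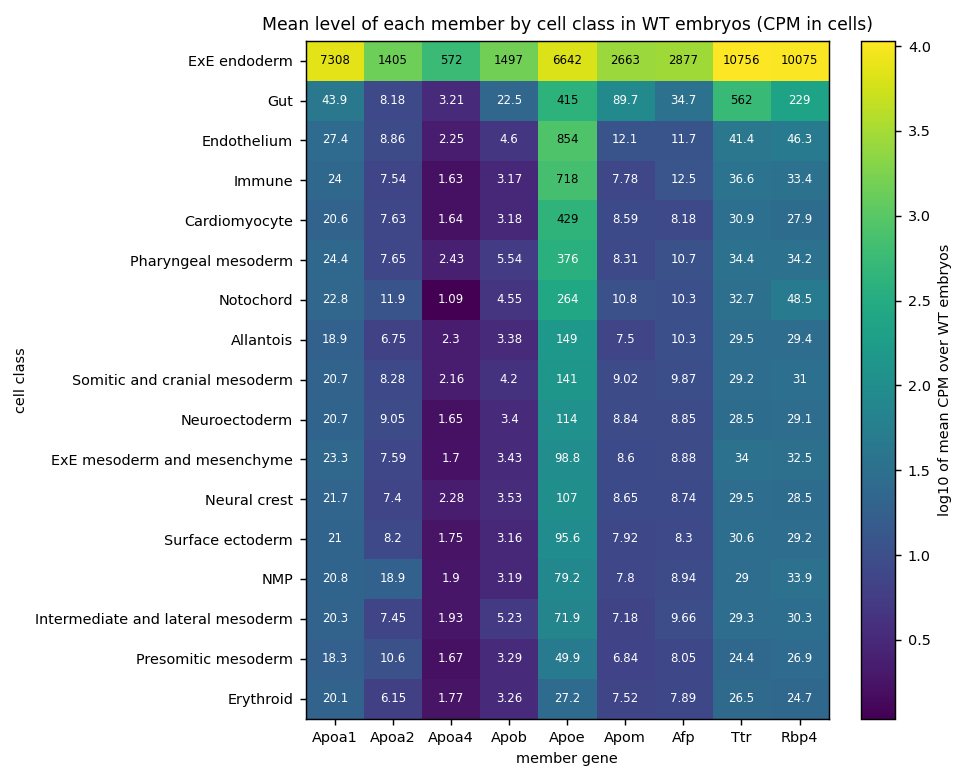
Mean level of each member (columns) in each cell class (rows) of the WT embryos, as log10 of the mean CPM by colour with the CPM printed in each field. Every member is highest in ExE endoderm, and Apoe is the member with the highest levels in endothelium and immune cells.

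Gut, the embryonic endoderm, had the next highest WT level of Ttr, Rbp4 and Apom after ExE endoderm. Ttr was at 562 ± 239 CPM in WT gut (n = 7), Apoe at 415 ± 124, Rbp4 at 229 ± 128 and Apom at 89.7 ± 32.9. In this order the ranges of neighbours overlapped, and Apoe was above Ttr in 3 of 7 WT embryos (WT 4, 5 and 7). Apom, at most 144 CPM, lay below the lowest values of Apoe (247 CPM) and Ttr (317 CPM). In endothelium, the next class, Ttr was at 41.4 CPM. Ratios of UMIs between members were set beside each other by class. The ratio of Ttr to Apoa1 was 1.42 to 1.55 in WT ExE endoderm, 1.19 to 1.55 in erythroid cells and 1.21 to 1.51 in presomitic mesoderm, against 9.55 to 24.7 in gut. Apoe to Apoa1 was 0.832 to 1.00 in ExE endoderm, 1.20 to 2.0 in erythroid cells and 16.1 to 88.9 in endothelium. The part of free RNA in these ratios was not tested. Apoa1, Apob, Apoa4 and Afp reached no more than 43.9, 22.5, 3.21 and 34.7 CPM on average in any WT class outside ExE endoderm, and for each of them gut was that class. Apoa2 was next highest in neuromesodermal progenitors, at 18.9 ± 3.93 CPM against 8.18 ± 4.61 in gut (SD, n = 7).

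Among the genes most like the mean of the members over the 17 WT classes were Lgals2 (Pearson r = 0.997), Spp2 (0.995), S100g (0.993) and Amn (0.993). These values describe class means from the same libraries and carry no test. Amn and S100g are among the markers that named ExE endoderm. Of the members themselves Afp was closest to the mean (0.996) and Apoe farthest (0.787).

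Summed over the whole embryo, none of the 9 members was called in any KO. Calls needed 2 things: an adjusted p (Benjamini-Hochberg, edgeR quasi-likelihood test over all genes) below 1%, and a log2 fold change of 1 or more in size. In Dnmt1 KO 14.2% of all tested genes were called, in Dnmt3a KO 0.208% and in Dnmt3b KO 1.8%. At an unadjusted p under 0.05, 1, 0 and 1 members passed in edgeR, and DESeq2 also called 0 of 9 in each KO. In a sum over an embryo, fewer cells of a type and less RNA per cell cannot be told apart.

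Apoe came closest in Dnmt1 KO. It was at 2923, 2269 and 1058 CPM in Dnmt1 KO 1, 2 and 3, and in WT its lowest, median and highest values were 561, 1199 and 1506 CPM. Dnmt1 KO 1 and 2 lay above every WT embryo and Dnmt1 KO 3 within the WT range. The log2 fold change was 0.92 (SE 0.29, adjusted p = 0.0200). Dnmt1 KO 3 had the lowest level of the 3 embryos for every member. For Apoa1 the values were 1701, 1213 and 338 CPM, the last below the WT minimum of 479. Without Dnmt1 KO 3, 2 members were called, Apoe and Apom.

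The share of ExE endoderm among kept cells was also lowest in Dnmt1 KO 3. It was 30.2% in Dnmt1 KO 1, 28.3% in Dnmt1 KO 2 and 15.3% in Dnmt1 KO 3, against 15.5% ± 3.83 in WT (SD, n = 7; exact permutation test of the log2 share, two-sided, p = 0.0667, adjusted over the 3 KOs 0.2, smallest possible p 0.0167). In Dnmt3a KO the share was 20.2% ± 14.4 (n = 4; exact permutation p = 0.648), with 41.2% in Dnmt3a KO 2. In Dnmt3b KO it was 13.3% ± 2.30 (n = 3; exact permutation p = 0.483). Without Dnmt3a KO 2 the log2 difference of that group from WT changed sign, from 0.178 to -0.246. In that library 78.7% of the cells of the class were in cluster 0, with a median of 2807.5 UMIs. Over the deeply sequenced clusters 2 and 11 alone, an alternative chosen after the data had been seen, its share was 3.70% against 7.17% ± 2.76 in WT (n = 7). On the same clusters Dnmt1 KO 1, 2 and 3 were at 23.7, 21.1 and 4.87% (log2 difference from WT 1.06 in place of 0.644, exact permutation p = 0.117).

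Within ExE endoderm the mean level of each member other than Apoe was lower in Dnmt1 KO than in WT, though none was called. The UMIs of this class came mostly from different clusters in Dnmt1 KO and WT, as described below. The 9 members took 3.11% ± 0.321 of the UMIs of the class in Dnmt1 KO (SD, n = 3; 2.85 to 3.47%) against 4.38% ± 0.642 in WT (n = 7; 3.34 to 5.52%). The log2 fold change was below 0 for 8 of 9 members with a median of -0.52, and the median over all 13844 tested genes was -0.000148. None of the 9 was called by edgeR or DESeq2, where 5.06% of all genes were called in either direction and 1.68% as lower. At an unadjusted p under 0.05, 5 members passed in edgeR and 6 in DESeq2, and 37.5% of all genes in edgeR.

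Apoa1 had the lowest adjusted p. It was at 4247, 3822 and 3201 CPM in Dnmt1 KO 1, 2 and 3, and its lowest, median and highest WT values were 5874, 7104 and 9101 CPM. All 3 Dnmt1 KO embryos lay below all 7 WT embryos. The log2 fold change of -0.95 (SE 0.15, adjusted p = 1.60e-04) passed the test but not the size limit of a call. It was called without WT 2 (-1.01) and without Dnmt1 KO 1 (-1.04), and it ranged from -1.04 to -0.68 over 31 alternatives, of which 29 had an adjusted p under 1%. With sex as a covariate the adjusted p was 0.0256.

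**Figure D2:**
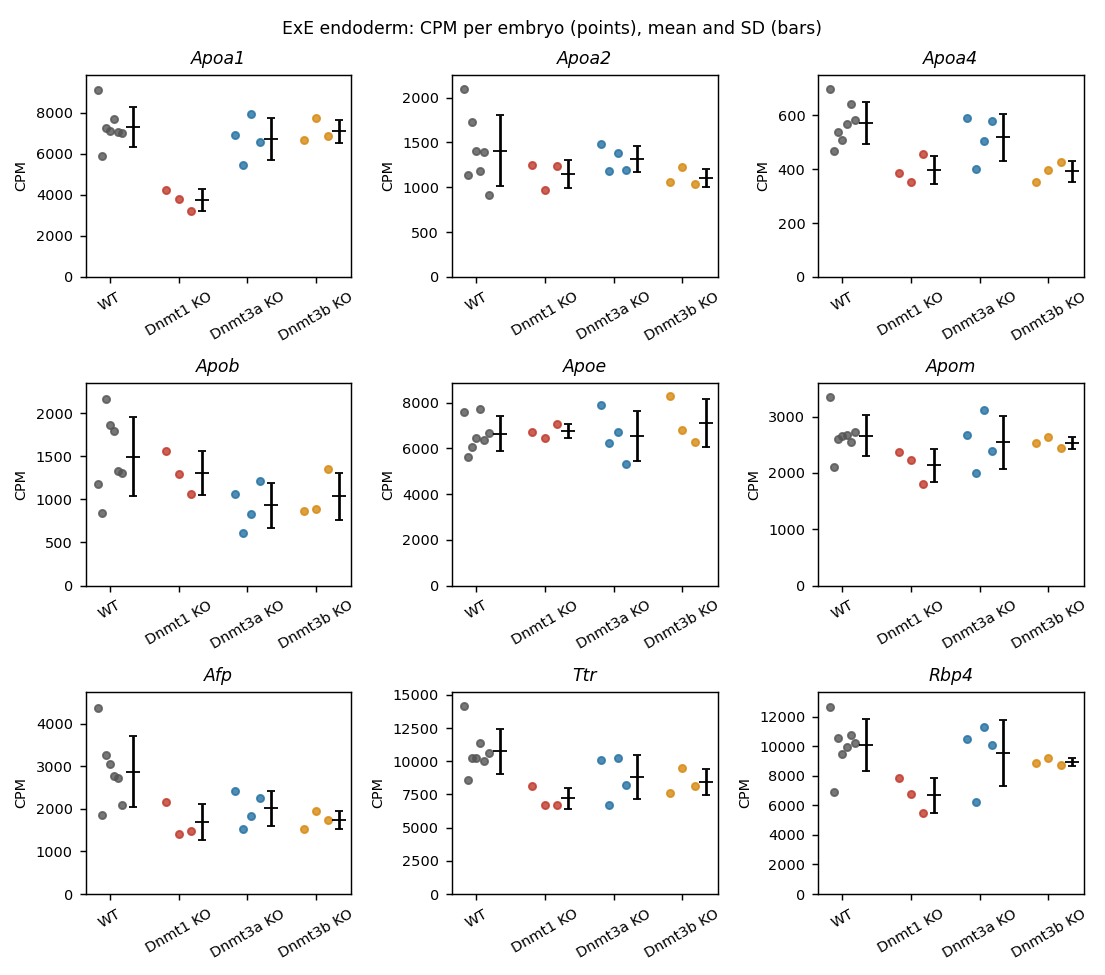
Level of each member in ExE endoderm in CPM (linear axis from 0), 1 point per embryo by group, with Dnmt3b KO 1 and 2 as 1 point and a bar of the mean ± SD beside each group. The 3 Dnmt1 KO embryos sit below all WT embryos for Apoa1, Apoa4 and Ttr, and Dnmt1 KO and WT overlap for the other 6 members. Most UMIs of the class came from cluster 11 in Dnmt1 KO and from cluster 2 in WT.

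The carriers and Apoa4 differed by less. Ttr was at 8138, 6736 and 6721 CPM in Dnmt1 KO against a lowest, median and highest WT value of 8607, 10276 and 14137 (log2 fold change -0.57, SE 0.16, adjusted p = 0.0153). Apoa4, which was at 385, 351 and 455 CPM against 467, 569 and 697, had a log2 fold change (adjusted p = 0.0122) of -0.52, SE 0.14. Neither passed the 1% limit, although the groups did not overlap. With Apoa1, 3 of 9 members had all Dnmt1 KO embryos below all WT embryos, as did 12.7% of all tested genes. Rbp4 (7820, 6770 and 5460 CPM against 6878, 10232 and 12672; log2 fold change -0.58, SE 0.19, adjusted p = 0.0301) overlapped with WT. Afp (2168, 1422 and 1488 CPM against 1853, 2772 and 4375; -0.76, SE 0.23, adjusted p = 0.0216) overlapped as well.

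Apoe overlapped with WT in this class. It was at 6730, 6452 and 7079 CPM in Dnmt1 KO against 5628, 6444 and 7716 in WT (log2 fold change 0.04, SE 0.13, adjusted p = 0.873). Apob, Apoa2 and Apom also overlapped with WT, with log2 fold changes of -0.18 (SE 0.25), -0.29 (SE 0.20) and -0.31 (SE 0.15) and adjusted p-values of 0.627, 0.314 and 0.143. In the pool of the members, Apoe was 21.9% ± 2.74 of the members' UMIs in Dnmt1 KO (n = 3) and 15.3% ± 1.33 in WT (n = 7), and Apoa1 12.1% ± 0.761 and 16.7% ± 0.419.

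**Figure D3:**
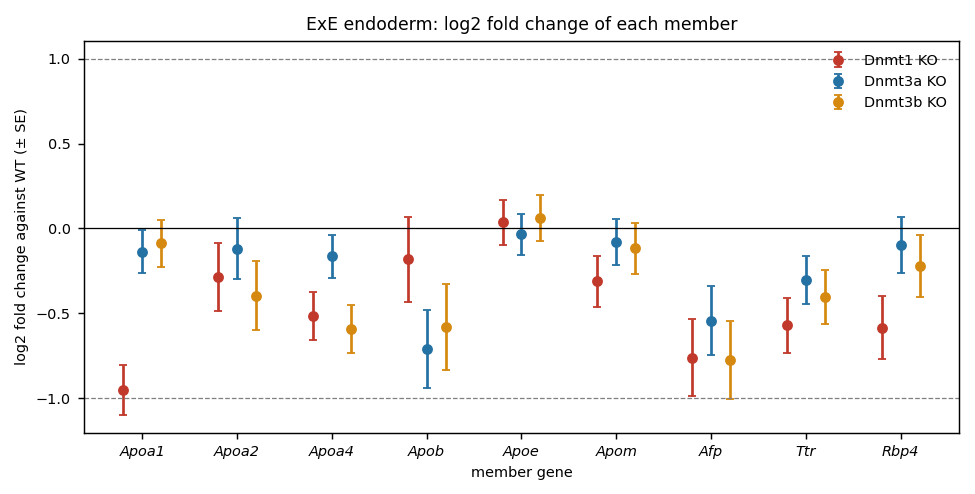
Log2 fold change of each member in ExE endoderm for each KO against WT, with bars of 1 standard error and lines at the limits of a call. Most values lie below 0 in all 3 KOs, Apoa1 in Dnmt1 KO at -0.95 is farthest from 0, and Apoe lies at 0.04, -0.04 and 0.06. Most UMIs of the class came from cluster 11 in Dnmt1 KO and from cluster 2 in WT.

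Other values moved with these levels. In Dnmt1 KO 88.4 to 98.4% of the UMIs of ExE endoderm came from cluster 11, led by Cubn, Pkd1l2, Mt1 and Dpp4. In WT 60.1 to 96.9% came from cluster 2, led by Cubn, Amn and Spp2. In the sum over the class, a difference between these groups is therefore also one between these clusters, and the 2 cannot be told apart. The shallow cluster 0, found in every embryo of both groups, held 1.02 to 6.46% of these UMIs in Dnmt1 KO and 2.37 to 20.9% in WT. In it Apoa1 was at 4690, 3418 and 3521 CPM in Dnmt1 KO 1, 2 and 3 against 6305 to 8604 in WT. Ttr (6037 to 9804 against 9453 to 15863 CPM) and Apoe (6756 to 9207 against 6323 to 8419) overlapped there. The levels within cluster 0 were not tested. Marker sums of ExE endoderm overlapped between Dnmt1 KO (8940 to 11171 CPM) and WT (8770 to 12562), whereas those of ExE ectoderm, the trophoblast lineage, were higher in Dnmt1 KO (736 to 903 CPM against 342 to 444, with 9 of 10 markers detected and Tpbpa at 0). Marker sums of parietal endoderm were 877 to 1883 CPM against 569 to 1510, and those of gut 772 to 803 against 625 to 738. The part of these cells in the members' levels was not tested.

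In Dnmt3a KO and Dnmt3b KO none of the members was called in ExE endoderm by edgeR or DESeq2, where 0.6% and 1.23% of all genes were. At an unadjusted p under 0.05, 3 and 4 members passed in edgeR (15% and 15.9% of all genes) and 3 and 5 in DESeq2. All 9 log2 fold changes were below 0 in Dnmt3a KO (median -0.14, all genes 0.0156) and 8 of 9 in Dnmt3b KO (median -0.40). Every KO is compared with the same 7 WT embryos, so these directions are not independent of those in Dnmt1 KO. In Dnmt3a KO Apob had the largest difference, at 1067, 608, 832 and 1212 CPM in Dnmt3a KO 1, 2, 13 and 14 against 841, 1327 and 2162 in WT (log2 fold change -0.71, SE 0.23, adjusted p = 0.129). In Dnmt3a KO 2 the shallow cluster 0, at 247 CPM for Apob, held 51.3% of the UMIs of the class, and cluster 2 was at 1124 CPM. Without the shallow clusters the log2 fold change of the group was -0.59, not called. In Dnmt3b KO, Afp was at 1748 CPM in the summed pair, 1534 in Dnmt3b KO 11 and 1943 in Dnmt3b KO 12 against 1853, 2772 and 4375 in WT (-0.78, SE 0.23, adjusted p = 0.0720).

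Apoa4 was the only member whose Dnmt3b KO samples all lay below WT, at 427, 351 and 398 CPM against a WT minimum of 467. Its log2 fold change was -0.59 (SE 0.14, adjusted p = 0.0233), and 1.6% of all genes had Dnmt3b KO wholly below WT. No member had Dnmt3a KO wholly below WT, as 0.831% of all genes did. Apoe was at 7901, 6243, 6731 and 5315 CPM in Dnmt3a KO and at 6286, 8289 and 6792 in Dnmt3b KO, with log2 fold changes of -0.04 and 0.06.

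Summed over all cells outside ExE endoderm, 1 member was called in Dnmt1 KO, Apoe. It was at 400, 351 and 359 CPM in Dnmt1 KO against 135, 164 and 196 (lowest, median and highest) in WT. Every Dnmt1 KO embryo was above every WT embryo, with 370 ± 26.3 CPM (SD, n = 3) against 165 ± 20.3 (n = 7). The share of all genes without overlap is given for ExE endoderm only. Here and in the classes below, lack of overlap describes the values alone. The log2 fold change was 1.22 (SE 0.19, edgeR adjusted p = 9.11e-05), and this was the 1 call among the 9 members, where 14.4% of all genes were called and 8.72% as higher. It stayed between 1.18 and 1.39 over 30 alternatives, with an adjusted p of at most 0.00233. The mix of cells in this sum differed between the groups as well. Immune cells, in which Apoe is high in both groups, gave 6.47 to 10.5% of its UMIs in Dnmt1 KO and 0.279 to 0.982% in WT, and with that 41.9 to 95.2 CPM of the Apoe level against 1.89 to 8.23. Epiblast-like cells and ExE ectoderm gave 11.5 to 26.4% and 8.07 to 52.2% of the UMIs in Dnmt1 KO and at most 0.297% and 1.98% in WT, whereas neuroectoderm gave 10.0 to 25% in WT and 0 in Dnmt1 KO. In this sum a change of the mix and a change within cells cannot be told apart. Of the other members, Rbp4 (-0.88, adjusted p = 0.109), Apoa1 (-0.86, 0.189) and Ttr (-0.78, 0.118) had the lowest log2 fold changes.

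By class, 5 of the 44 tested pairs of a member and a class were called in Dnmt1 KO, all as higher, where 8.85% of all pairs of a gene and a class were called and 4.82% as higher. The classes with at least 25 cells in 3 Dnmt1 KO and 3 WT embryos were gut, presomitic mesoderm, ExE mesoderm and mesenchyme, endothelium and immune cells. The called pairs were Apoe in the first 3 of these and Apob and Apom in gut. At an unadjusted p under 0.05, 9 of the 44 pairs passed in edgeR, as did 39.8% of all pairs. Both presomitic mesoderm and ExE mesoderm and mesenchyme were made mostly of different clusters in Dnmt1 KO and WT, as described with their values.

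In gut the 3 called members were Apoe, Apom and Apob, the last of which encodes the scaffold of lipoprotein particles. Apoe was at 1876, 2275 and 1786 CPM in Dnmt1 KO 1, 2 and 3 against 247, 389 and 601 in WT (log2 fold change 2.37, SE 0.29, adjusted p = 4.58e-06). Apob was at 114, 249 and 77.6 CPM against 7.98, 20.6 and 41.9 (2.73, SE 0.41, adjusted p = 5.69e-05). Apom was at 380, 332 and 223 CPM against 63.0, 67.7 and 144 (1.90, SE 0.33, adjusted p = 2.30e-04). For each of the 3 all Dnmt1 KO embryos lay above all WT embryos, and the call was kept in the 30 alternatives that could test gut, which leaves out the minimum of 50 cells. Among all genes 7.62% were called in gut and 4.29% as higher, and the share wholly above WT is not given.

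The carriers were not called. Ttr, with the highest mean in WT gut, was at 449, 1108 and 399 CPM in Dnmt1 KO against 317, 440 and 935 in WT (log2 fold change 0.32). Rbp4 was at 214, 146 and 90.0 CPM against 84.3, 160 and 409 (-0.52), and Apoa2 had a log2 fold change of 0.12. Apoa4 at 7.97 ± 1.87 CPM against 3.21 ± 1.40 (1.37, adjusted p = 0.0579), Afp (1.11, adjusted p = 0.0323) and Apoa1 (0.85, adjusted p = 0.146) were not called.

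**Figure D4:**
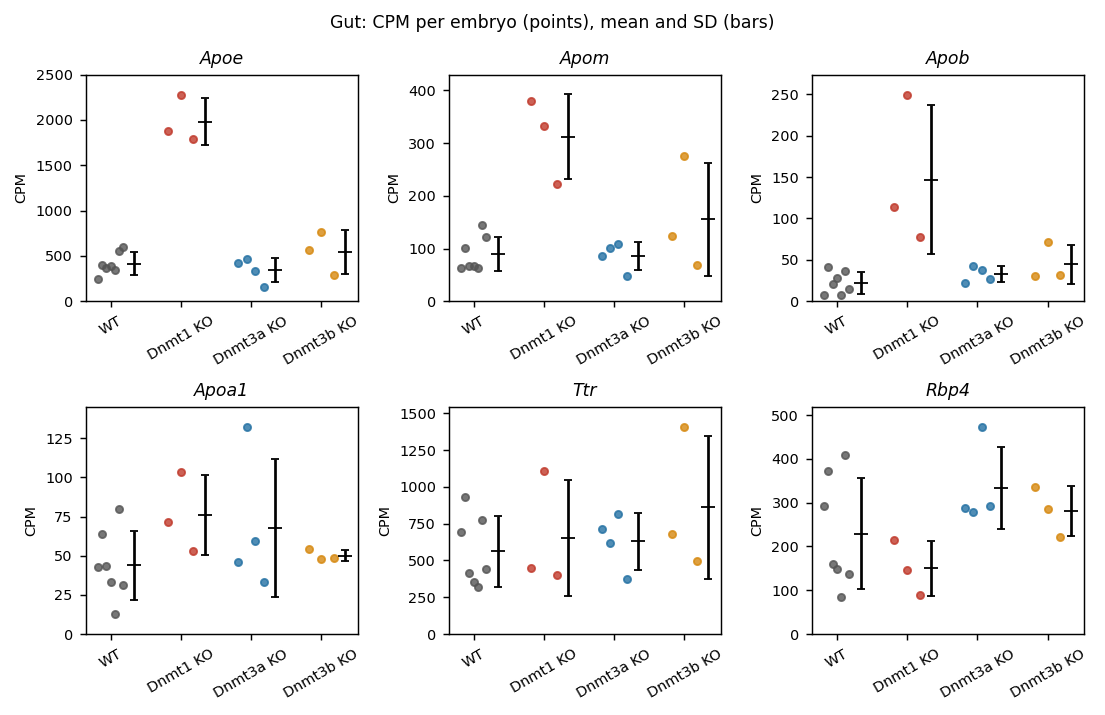
Level of 6 members in gut in CPM (linear axis from 0), 1 point per embryo by group, with Dnmt3b KO 1 and 2 as 1 point and a bar of the mean ± SD beside each group. Apoe, Apob and Apom in the 3 Dnmt1 KO embryos lie above all WT embryos, whereas Apoa1, Ttr and Rbp4 overlap with WT.

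The gut comparison rests on 28, 42 and 39 cells in Dnmt1 KO against 72 to 470 per WT embryo. Cluster 3, led by Nepn, Apela, Gpx2 and Trh, held 96.3% of the Dnmt1 KO gut cells and 67.2% of those of WT, and cluster 27 the rest. Within cluster 3 alone, a comparison added after the data had been seen, the log2 fold changes were 2.18 for Apoe (adjusted p = 7.91e-06), 2.47 for Apob (3.37e-04) and 1.48 for Apom (0.00162). All 10 ExE endoderm markers were detected in gut and summed to 4180 to 6095 CPM in Dnmt1 KO against 976 to 2180 in WT, while gut markers summed to 2442 to 2684 against 1752 to 2328. The part of ExE endoderm cells in the gut result was not tested. The ratio of Apoe to Apoa1 UMIs was 21.9 to 33.8 in Dnmt1 KO gut and 1.58 to 2.21 in Dnmt1 KO ExE endoderm, and that in WT gut was 5.80 to 26.5.

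More gut cells carried Apoe. With each cell thinned to 1500 UMIs, 75.2 to 84.3% of gut cells had an Apoe UMI in Dnmt1 KO and 27.0 to 44.1% in WT, against 1.75 to 7.56% of WT erythroid cells, a class that is taken here as background. Without thinning the medians were 100% and 86.1% in gut. Median depth per cell before thinning was 31537 to 51011 UMIs in Dnmt1 KO gut, 10438 to 48617 in WT gut and 12241 to 68880 in WT erythroid cells. For Apob the thinned shares in gut were 9.92 to 17.4% against 1.37 to 3.22% in WT, with 0.221 to 1.73% in WT erythroid cells, so that the WT gut share lies near this background. For Apom they were 19.4 to 25.9% against 5.97 to 15.8%, with 0.57 to 2.67% in WT erythroid cells.

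The class named presomitic mesoderm sets cluster 25 in Dnmt1 KO beside cluster 9 in WT. Cluster 25, led by Mesp1, with Sfrp5, Mef2c and Pcdh19, held 99.6% of the Dnmt1 KO cells of the class and has no presomitic marker among its 10 leading genes, while cluster 9, also led by Pcdh19 but with Dll3, Dll1, Hes7 and Tbx6, held 99.6% of the WT cells. A difference between the groups in this class is therefore also one between these clusters, and the 2 cannot be told apart. Apoe was at 333, 290 and 357 CPM in Dnmt1 KO against 25.1, 48.7 and 80.8 in WT, and the groups did not overlap (log2 fold change 2.75, SE 0.27, edgeR adjusted p = 2.32e-07), in a class where 10.5% of genes were called and 6.7% as higher. The other 8 members were not called there, and the ratio of Apoe to Apoa1 was 22.1 to 115 in Dnmt1 KO against 1.35 to 8.95 in WT. Thinned to 1500 UMIs, 30.9 to 36% of the cells had an Apoe UMI against 4.55 to 10.7%. ExE endoderm markers summed to 83.9 to 106 CPM against 46.0 to 83.0.

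In ExE mesoderm and mesenchyme Apoe was at 175, 192 and 194 CPM in Dnmt1 KO against 81.0, 98.6 and 114 in WT. The groups did not overlap, and the log2 fold change of 1.01 (SE 0.19, edgeR adjusted p = 5.04e-04) was just past the size limit, where 9.84% of genes were called and 5.49% as higher. It fell below that limit in 7 of 30 alternatives, to between 0.95 and 0.99, and counts thinned to the smallest sum gave an adjusted p of 0.0250. Cluster 21 held 88.7% of these cells in Dnmt1 KO and 1.03% in WT, whose cells were in clusters 28 (36.7%), 30 (32.9%) and 32 (29.4%). Here too a difference between the groups cannot be told apart from one between clusters. ExE endoderm markers summed to 137 to 223 CPM in Dnmt1 KO and 197 to 260 in WT.

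In endothelium and immune cells, where Apoe was highest in WT outside endoderm, Dnmt1 KO overlapped with WT. In endothelium it was at 796, 744 and 608 CPM against 657, 886 and 1013 in WT (log2 fold change -0.21, adjusted p = 0.319). In immune cells it was at 910, 780 and 648 CPM against 598, 663, 775 and 838 in the 4 WT embryos with enough cells (0.26, adjusted p = 0.273). In epiblast-like cells, a class that reached 25 cells per embryo in Dnmt1 KO only, Apoe was at 285, 305 and 280 CPM. In ExE ectoderm it was at 276, 256 and 229 CPM in Dnmt1 KO and at 158 in WT 2, the 1 WT embryo with enough cells, and neither class could be tested.

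**Figure D5:**
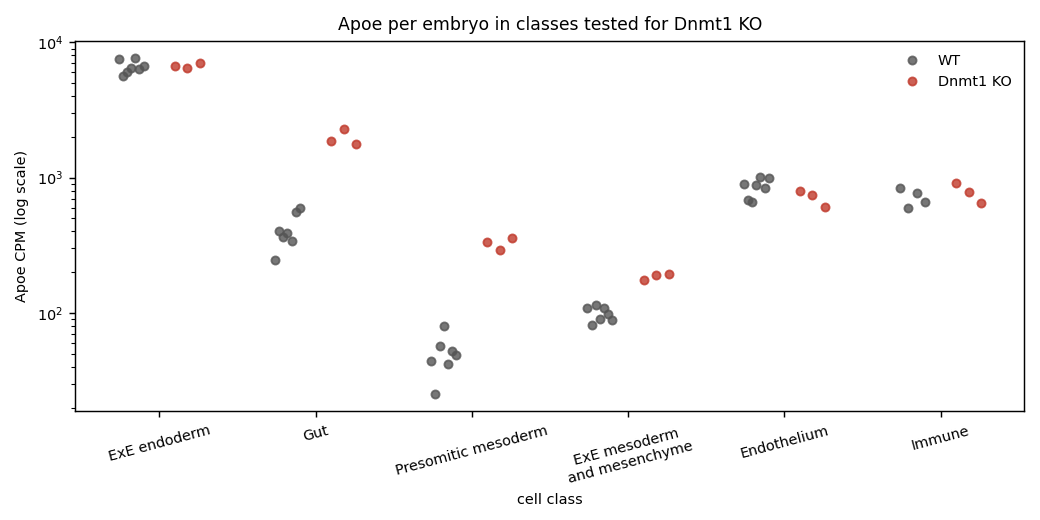
Apoe in CPM (log axis) in each class with at least 25 cells in 3 Dnmt1 KO and 3 WT embryos, 1 point per embryo for WT and Dnmt1 KO. Dnmt1 KO lies above WT in gut, in the class named presomitic mesoderm (cluster 25 in Dnmt1 KO, cluster 9 in WT), and in ExE mesoderm and mesenchyme (mostly cluster 21 in Dnmt1 KO, clusters 28, 30 and 32 in WT), and overlaps with WT in ExE endoderm, endothelium and immune cells.

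Whether the change of a member in a class differed from its change in ExE endoderm of the same embryos was asked in 45 exact two-sided permutation tests. The difference was 2.27 on the log2 scale for Apoe in gut, 2.72 in the class named presomitic mesoderm (cluster 25 against cluster 9) and 0.89 in ExE mesoderm and mesenchyme (mostly cluster 21 against clusters 28, 30 and 32). In gut it was 2.87 for Apob, 2.14 for Apom, 1.86 for Apoa1, 1.71 for Afp and 1.66 for Apoa4. These 8 exact tests reached p = 0.0167, the smallest that 3 against 7 embryos can give, and an adjusted p of 0.0938. At this number of embryos no single test can reach the 1% limit used for calls, so these tests do not show whether the changes differ.

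In Dnmt3a KO and Dnmt3b KO no member was called in any other class. That holds for 139 pairs in 16 classes and 125 pairs in 14 classes, where 0.0772% and 0.665% of all pairs were called, by edgeR and by DESeq2. At an unadjusted p under 0.05, 38 and 4 pairs passed in edgeR (9.50% and 14.7% of all pairs) and 26 and 4 in DESeq2. Summed over all cells outside ExE endoderm, 0 of 9 members were called in both KOs by either tool (background 0.26% and 2%), with 3 and 0 at an unadjusted p under 0.05 in edgeR and 2 and 0 in DESeq2. In these sums 8 of 9 members had a log2 fold change above 0 in Dnmt3a KO. Dnmt3a KO 2 stood apart, with Apoa1 at 109 CPM against 21.0 to 30.5 in the other 3 embryos and 9.42 to 33.7 in WT. ExE endoderm took 41.2% of the cells of that library, and ExE endoderm markers outside the class summed to up to 416 CPM in Dnmt3a KO against 140 to 253 in WT. The part of free RNA in these values was not tested.

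Of 21 other secreted plasma protein genes, 16 were tested in ExE endoderm, and 2 were called higher and 1 lower in Dnmt1 KO. Among all genes 5.06% were called there in either direction. Apoh, which encodes beta-2-glycoprotein I, had 22 UMIs in 6 of 7 WT embryos (0.126 ± 0.0902 CPM) and 1134 in the 3 Dnmt1 KO embryos (12.3 ± 1.94 CPM; log2 fold change 6.66, SE 0.35, adjusted p = 4.60e-10). Igfbp1, which binds insulin-like growth factors, rose from 8.15 ± 2.07 to 29.4 ± 7.82 CPM (1.85). Trf, which encodes the iron carrier transferrin, fell from 295 ± 79.3 to 131 ± 23.1 CPM (-1.17, adjusted p = 8.74e-04). The median over the tested genes of this list was -0.05, against -0.000148 over all genes.

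Of 24 other genes of apolipoproteins and lipoprotein assembly, 21 were tested in ExE endoderm. Of these 2 were called higher and 1 lower, where 5.06% of all genes were called. The fatty acid-binding protein gene Fabp1 rose from 87.8 ± 14.7 to 245 ± 68.8 CPM (log2 fold change 1.49). Apoc4 rose from 11.3 ± 1.13 to 27.6 ± 1.66 CPM (1.29), and Apoc2, which encodes the activator of lipoprotein lipase, fell from 10.9 ± 3.02 to 4.65 ± 0.984 CPM (-1.23). None of the 12 tested receptors of lipoproteins and retinoids was called (0 of 12 in edgeR, 5 at an unadjusted p under 0.05). Of 14 tested endoderm transcription factors 1 was called, Sox17, which rose from 31.5 ± 10.6 to 81.2 ± 13.3 CPM (1.41). Hnf4a, a regulator of apolipoprotein genes in liver and visceral endoderm, was at 62.5 ± 8.26 CPM in WT and 58.9 ± 0.737 in Dnmt1 KO. Of 20 housekeeping genes 0 were called and 9 had an unadjusted p under 0.05, with a median log2 fold change of -0.10. In Dnmt3a KO and Dnmt3b KO no gene of these lists was called in ExE endoderm.

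In gut of Dnmt1 KO, 4 of 15 tested plasma protein genes were called higher and 0 lower. Among all genes 4.29% were called higher in gut and 7.62% in either direction. The median log2 fold change of the list was 0.64 against -0.03 over all genes. Apoh had 3 UMIs in 2 of 7 WT embryos and 60 UMIs in the 3 Dnmt1 KO embryos (10.9 ± 2.85 CPM). Ahsg, which encodes fetuin-A, was at 0.385 ± 0.338 CPM in WT and 3.72 ± 1.06 in Dnmt1 KO, and Hpx, which encodes the heme carrier hemopexin, at 2.64 ± 1.28 and 20.5 ± 9.61. Of 17 tested genes of apolipoproteins and lipoprotein assembly 3 were called higher and 1 lower: hepatic lipase Lipc (0.560 ± 0.392 against 7.35 ± 0.675 CPM), Cideb (0.853 ± 0.596 against 8.12 ± 5.79), which acts in the loading of lipid onto particles, and Apoc1 rose, and Fabp1 fell from 17.3 ± 12.5 to 1.07 ± 0.484 CPM. Among 11 receptors Lrp1, an ApoE receptor, was called lower (36.1 ± 3.14 against 12.2 ± 0.742 CPM). Of 13 transcription factors Zbtb20 was called higher (log2 fold change 1.11) and Nr2f2 lower (-3.23). None of 20 housekeeping genes was called in gut (11 at an unadjusted p under 0.05, median 0.03).

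The neighbours of Apoe on chromosome 7 differed among themselves. Apoc4, 14629 bases away, and Apoc2, 18167 bases away, are the genes called above in ExE endoderm as higher and lower. Apoc1, 3448 bases away and like Apoe the gene of an exchangeable apolipoprotein, was at 277 ± 42.2 CPM in WT and 321 ± 40.3 in Dnmt1 KO in ExE endoderm (log2 fold change 0.22, adjusted p = 0.226). In gut it rose from 11.6 ± 4.24 to 45.7 ± 9.57 CPM (2.07, adjusted p = 4.53e-04), and over all cells outside ExE endoderm its log2 fold change was 3.61 (adjusted p = 1.58e-06). Tomm40, a gene of the mitochondrial import pore 2124 bases from Apoe, had log2 fold changes of -0.43 in ExE endoderm, -0.43 in gut and -0.11 outside ExE endoderm. Beside Apoa1, Apoc3 was at 150 ± 26.5 and 135 ± 21.5 CPM in ExE endoderm (-0.15, adjusted p = 0.596) and Apoa5 at 21.1 ± 2.14 and 19.5 ± 2.20 (-0.11, adjusted p = 0.555). Alb, the albumin gene 14134 bases from Afp, had 7 UMIs in WT and 7 in Dnmt1 KO ExE endoderm and did not pass the filter on low counts there.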

How the data were processed

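Per the labels and the file headers, the authors counted UMIs per gene with Cell Ranger (3.1.0 in 17 matrices, 5.0.0 in that of Dnmt3b KO 12) from 10x 3' v3 libraries and deposited raw counts of called cell barcodes, on mm10. For 4 libraries (Dnmt3b KO 11, Dnmt3a KO 1 and 13, and WT 1) the reference also held human genes, which were not used.

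Members and gene lists were chosen with earlier results of these data known. Cells were kept with at least 1500 mouse UMIs, at most 30% mitochondrial and 35% ribosomal protein counts, and doublets scored with Scrublet were removed (scanpy 1.11.5, Python 3.11.15). Up to 1500 cells per library were clustered (Leiden, resolution 2, leidenalg 0.10.2) without members, listed genes, Hox, Y-linked, mitochondrial or ribosomal genes, and named by marker genes. The naming thresholds were taken from earlier work on these data, and names may differ from those of the study. Counts were summed per embryo and class with at least 25 cells and tested over the 4 groups in 1 fit, with at least 3 embryos per group compared (edgeR 4.0.16, R 4.3.3, quasi-likelihood, TMM, filter on low counts). The model was checked on simulated data. Standard errors (SE) came from the fold change and its test statistic. DESeq2 1.42.0 was an alternative. CPM are counts per 1000000 UMIs of the class, and log2 fold changes are KO against WT. Per the labels each library is 1 embryo, and apart from the summed pair p-values measure the spread between embryos. A share or UMI count of a single embryo is given without its counting error.

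The genes named were the 9 members, at most 3 called genes per direction of each list, the 5 genes most like the members' mean log2(CPM + 1) (1 of them is not reported here), and listed chromosome neighbours. Hnf4a was named after its values had been seen. No supplementary values of the study were used.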

Additional observations from a re-analysis of the deposited data

Results flagged for a closer look

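Apoa4 in the whole embryo was at 53.6 CPM in Dnmt3a KO 13, against 94.5 to 97.3 CPM in the other 3 Dnmt3a KO embryos. Its gap to the nearest of these was large for the range of the group by Dixon's test. It was the 1 flag among 38 tests, in groups of 4 or 7 embryos, and chance flags about 1 in 20. In ExE endoderm alone, Dnmt3a KO 13 was at 503 CPM for Apoa4, within the other 3 embryos (399 to 589).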

How the results depend on the processing

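Calls of members kept their side of the threshold under most alternatives (normalisation, DESeq2, filters on genes and cells, doublets, depth, sex or reference as covariate, leaving out each embryo). The exceptions follow, and the cause was not tested. In Dnmt1 KO the count of called members in the whole embryo ranged from 0 to 2 when 1 embryo was left out (2 without Dnmt1 KO 3) and in ExE endoderm from 0 to 1 (1 without WT 2 or without Dnmt1 KO 1). Outside ExE endoderm 2 were called with the replicate block (Apoe as before, and Ttr as lower). The count of called pairs of a member and another class in Dnmt1 KO ranged from 4 to 6 when 1 embryo was left out. Of pairs of a member and another class, 2 were called in Dnmt1 KO with at least 50 cells, where fewer classes are tested, and 2 in Dnmt3a KO with no filter on low counts (Apoa1 and Ttr in notochord, both as higher, carried by Dnmt3a KO 2 at 190 and 227 CPM; the other 2 embryos tested were at 15.1 and 27.9 for Apoa1 and 28.6 and 39.8 for Ttr). Apoe in ExE mesoderm and mesenchyme of Dnmt1 KO lost its call in 8 of 30 alternatives (replicate block, reference as covariate, no filter on low counts, thinned counts, and leaving out WT 2, 4 or 7 or Dnmt1 KO 3, with 0.95 to 1.08 over the embryos left out). The log2 difference in the share of ExE endoderm in Dnmt3a KO, 0.178, was -0.142 without the shallow ExE endoderm clusters, chosen after seeing the data, and ranged from -0.246 to 0.503 when 1 embryo was left out.

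Some log2 fold changes in ExE endoderm changed sign. With sex as a covariate, which WT 2 and Dnmt3b KO 12 alone inform, Apob was 0.17 in Dnmt1 KO. Under the same setting Apoa1 was 0.13, Apoa2 0.16, Apoa4 0.0276, Apoe 0.0700, Apom 0.16 and Rbp4 0.25 in Dnmt3a KO, and Apoa1 0.0757, Apom 0.0380 and Rbp4 0.0063 in Dnmt3b KO. With the replicate block Apoe was 0.0701 in Dnmt3a KO, and Apob 0.0654 and Apoe -0.13 in Dnmt3b KO. With the reference as a covariate Apoe was -0.0220 in Dnmt3b KO, and without Dnmt3b KO 11 and 12, chosen after seeing the data, -0.16. Leaving out 1 embryo gave ranges of -0.014 to 0.077 for Apoe in Dnmt1 KO, -0.203 to 0.017 for Apoa2, -0.146 to 0.069 for Apoe, -0.230 to 0.029 for Apom and -0.226 to 0.064 for Rbp4 in Dnmt3a KO, and -0.0929 to 0.108 for Apoe in Dnmt3b KO (0.158 without the summed pair).

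Same-numbered embryos of different groups did not deviate together as a set (13 pairs, correlation from -0.49 to 0.55, median -0.04, 5 over 0.1). The numbers were therefore used as names only. These correlations cannot exclude a shared litter or batch. The replicate block changed no other call. Gut rests on 28 to 42 cells per Dnmt1 KO embryo, which limits what can be seen of the members at low levels.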
